A study of Mus musculus with 15 samples.

Results

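The genes described here are 38 genes of glucose breakdown and of the response to low oxygen, chosen by symbol from a count table of 55571 gene rows. Of these, 23 belong to glycolysis: 3 glucose and lactate transporters, 16 glycolytic enzymes and 4 regulators of flux. The other 15 belong to the hypoxia response, as 3 genes for the HIF-1 alpha subunit and the oxygen sensors that control it, and 12 HIF-inducible effectors. All 38 had a row in the table, and 36 passed the filter on low counts and were tested. RNA was sequenced from E0771, a mouse mammary carcinoma cell line, in 5 groups of 3 libraries. The cells expressed Malt1_PD, Malt1_V87R, Malt1_L88D, wild-type Malt1 (Malt1_WT) or a Vector control, and by the series title all were grown without T cells. Malt1 is a scaffold protein and protease best known for its part in lymphocyte NF-kB signalling. The labels do not spell out PD, whose columns are named for the substitution of a cysteine, and they do not state if the cells that carry a construct are clonal. They also do not say whether replicates were separate cultures, so the p-values reflect differences among the sequenced libraries and possibly no more than technical variation.

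Glycolysis turns glucose into pyruvate in a fixed order of enzymes. Glucose enters through Slc2a1 (GLUT1), is trapped by the hexokinases, is committed by phosphofructokinase, and is split and oxidised to pyruvate, which lactate dehydrogenase turns into lactate for export through Slc16a1 (MCT1) or Slc16a3 (MCT4). Low oxygen acts on many of the same genes: the prolyl hydroxylases Egln1 and Egln3 mark HIF-1 alpha for destruction when oxygen is present, and when it is scarce the protein persists and activates genes for blood vessel growth, glucose uptake, mitophagy and collagen modification. Tumour cells often run glycolysis even when oxygen is present. Because the abundance of HIF-1 alpha is set mainly by protein breakdown, the level of Hif1a mRNA is not a measure of its activity.

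HIF binds the core letters ACGTG or GCGTG, which read CACGT and CACGC on the other strand. The 250 bases before the RefSeq start (most upstream start of each gene, GRCm38.p6) are shown for 4 hypoxia effectors that differed most between Malt1_WT and Vector control and for 2 glycolytic enzymes often used as examples of HIF targets. Capitals mark every match to a core on either strand, and positions count back from the start. CACGTG holds a match on both strands and is also the letters of an E-box.
Adm (chr7:110627407-110627656, plus strand): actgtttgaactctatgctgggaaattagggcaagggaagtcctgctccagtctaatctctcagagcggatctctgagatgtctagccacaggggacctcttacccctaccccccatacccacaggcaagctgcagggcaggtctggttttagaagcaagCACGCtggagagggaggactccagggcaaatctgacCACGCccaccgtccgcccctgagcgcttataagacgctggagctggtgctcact
Ddit4 (chr10:59951835-59952020, minus strand): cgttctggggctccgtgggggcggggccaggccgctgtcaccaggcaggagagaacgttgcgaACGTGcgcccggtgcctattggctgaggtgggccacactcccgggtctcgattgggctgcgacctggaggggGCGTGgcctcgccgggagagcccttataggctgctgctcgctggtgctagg
Hilpda (chr6:29272238-29272487, plus strand): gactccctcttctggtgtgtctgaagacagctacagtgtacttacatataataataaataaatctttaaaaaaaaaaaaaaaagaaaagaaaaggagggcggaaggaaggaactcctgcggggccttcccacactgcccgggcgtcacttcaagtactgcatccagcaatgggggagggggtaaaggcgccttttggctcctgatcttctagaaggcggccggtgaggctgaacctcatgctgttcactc
Vegfa (chr17:46032378-46032627, minus strand): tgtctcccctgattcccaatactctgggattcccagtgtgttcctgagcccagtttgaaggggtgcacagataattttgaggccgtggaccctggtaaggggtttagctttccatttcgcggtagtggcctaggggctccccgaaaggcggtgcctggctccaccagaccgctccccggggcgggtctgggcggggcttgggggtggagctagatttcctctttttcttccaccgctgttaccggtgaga
Ldha (chr7:46845554-46845803, plus strand): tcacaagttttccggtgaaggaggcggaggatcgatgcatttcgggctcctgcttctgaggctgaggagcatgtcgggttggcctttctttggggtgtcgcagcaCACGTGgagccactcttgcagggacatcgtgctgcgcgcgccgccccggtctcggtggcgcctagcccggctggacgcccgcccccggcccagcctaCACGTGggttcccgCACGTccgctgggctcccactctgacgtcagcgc
Pgk1 (chrX:106186850-106187099, plus strand): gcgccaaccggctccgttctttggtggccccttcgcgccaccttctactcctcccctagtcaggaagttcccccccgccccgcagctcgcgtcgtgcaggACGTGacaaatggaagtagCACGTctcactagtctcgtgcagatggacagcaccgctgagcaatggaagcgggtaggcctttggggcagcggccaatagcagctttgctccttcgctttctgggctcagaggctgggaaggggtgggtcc
For Ddit4 the 64 bases nearest the start are left out, since GENCODE places them inside the transcript. Adm held CACGC at -90 and -54, and Ddit4 held ACGTG at -187 and GCGTG at -115. No core was found in these windows of Hilpda and Vegfa, while the window of a second RefSeq start held 3 matches for Hilpda and 2 for Vegfa. Ldha held 5 matches, 4 of them in a pair of CACGTG, and Pgk1 held 2. A window was available for 36 of the 38 genes, and not for Bnip3l and Ndrg1. A core was present in 29 of these 36 windows (80.6%), against 55.7% of 10076 tested genes with a window and 38.6% of all 32851 windows. Genes that were higher in Malt1_WT than in Vector control held a core in 12 of 15 windows and genes that were lower in 10 of 14. Those that did not pass the test held one in 5 of 5. Such a match is a description of letters and not a binding site.

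Library totals ran from 15471746 to 21458457 counts, and the 38 genes together took 2.96% to 3.26% of the counts of a library. Malt1 itself averaged 249.8 ± 8.86 counts scaled to a library total of 1e6 (CPM) in Malt1_PD, 279.5 ± 1.35 in Malt1_V87R, 251 ± 6.73 in Malt1_L88D and 202 ± 7.96 in Malt1_WT, against 28.1 ± 1.92 in Vector control (SD, n = 3 each). It was higher in every construct than in Vector control, which had a Malt1 signal of its own, and the level in Malt1_WT was the lowest among the constructs. The epithelial markers checked summed to 123 CPM in Malt1_PD, 101 in Malt1_V87R, 106 in Malt1_L88D and 98.1 in Malt1_WT, against 129 in Vector control, mostly from the keratin Krt8. Of 11 such markers 3 passed the filter on low counts and were tested. Against Vector control, 0 were higher and 1 lower in Malt1_PD. In each of Malt1_V87R and Malt1_L88D 1 was higher and 2 were lower, and in Malt1_WT 0 were higher and 2 lower. Of all genes, 44.8%, 11.7%, 17.4% and 54.9% passed against Vector control in that order. The summed level of 14 macrophage and dendritic markers was 63.8 to 67.6 CPM in Malt1_PD, 26.2 to 30.5 in Malt1_V87R, 31.0 to 52.3 in Malt1_L88D and 57.5 to 65.9 in Malt1_WT, against 28.4 to 30.7 in Vector control. Of 7 such markers tested, 7 were higher in Malt1_PD, 0 in Malt1_V87R, 3 in Malt1_L88D and 4 in Malt1_WT than in Vector control, beside 22.8%, 7.01%, 8.97% and 27.2% of all genes in that order. Cd14 and Cd68 supplied most of the sum in Malt1_WT, and Ptprc, the marker carried by all leukocytes, averaged at most 0.151 CPM in any group. Lyz2 averaged 14.35 CPM in Malt1_PD and 13.74 in Malt1_L88D (libraries 5.486, 19.55 and 16.19). It averaged 5.003 CPM in Malt1_V87R, 4.635 in Malt1_WT and 5.658 in Vector control. Csf1r averaged 2.724 CPM in Malt1_PD, 0.5045 in Malt1_V87R, 1.667 in Malt1_L88D and 1.573 in Malt1_WT, against 0.9615 in Vector control. C1qb averaged 0.5405 CPM in Malt1_PD and 0.5347 in Malt1_L88D, against 0.07187 in Vector control. Fcgr3 was at 0 in Malt1_PD, Malt1_V87R and Vector control, and Aif1 was at 0 in Vector control. Fibroblast markers summed to 482 CPM in Malt1_PD, 439 in Malt1_V87R, 435 in Malt1_L88D and 426 in Malt1_WT, against 456 in Vector control. Of 8 tested, 3 passed in Malt1_PD, 1 in Malt1_V87R, 3 in Malt1_L88D and 7 in Malt1_WT, where 2 were higher and 5 lower. The shares of all genes that passed were 44.8%, 11.7%, 17.4% and 54.9% in that order. Endothelial markers summed to 121 CPM in Malt1_PD, 136 in Malt1_V87R, 135 in Malt1_L88D and 136 in Malt1_WT, against 114 in Vector control. Eng supplied most of each sum, with 94.9 CPM in Vector control. Of 5 tested, 1 passed in Malt1_PD, 2 in Malt1_V87R, 2 in Malt1_L88D and 3 in Malt1_WT, beside the same shares of all genes. All calls in Malt1_PD and Malt1_WT were higher, while Malt1_V87R and Malt1_L88D each had 1 higher and 1 lower. These values move with several results below, and their part in them was not tested. In such bulk libraries fewer expressing cells and less RNA per cell cannot be told apart.

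Of the 36 tested genes, 30 differed somewhere among the 5 groups (edgeR quasi-likelihood F test, adjusted p under 0.05), beside 61% of all genes tested. Malt1_WT and Malt1_PD stood apart from the other groups, with several HIF-inducible effectors higher and a raised start of the glycolytic pathway. Most of the later enzymes were lower, and in Malt1_WT these included Ldha and Pgk1, given above as examples of HIF targets. Malt1_V87R and Malt1_L88D stayed near Vector control and moved in small steps. The 12 effectors summed to 2995 ± 23.7 CPM in Malt1_PD, 2288 ± 54.1 in Malt1_V87R, 2355 ± 51.2 in Malt1_L88D and 4048 ± 31.4 in Malt1_WT, against 2103 ± 49.6 in Vector control (SD, n = 3 each). The 16 glycolytic enzymes summed to 23930 ± 906 CPM in Malt1_PD, 24603 ± 325 in Malt1_V87R, 24430 ± 214 in Malt1_L88D and 22586 ± 438 in Malt1_WT, against 25850 ± 926 in Vector control. Malt1_WT thus had the highest effector sum and the lowest enzyme sum, and Vector control the lowest effector sum and the highest enzyme sum.

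**Figure D1:**
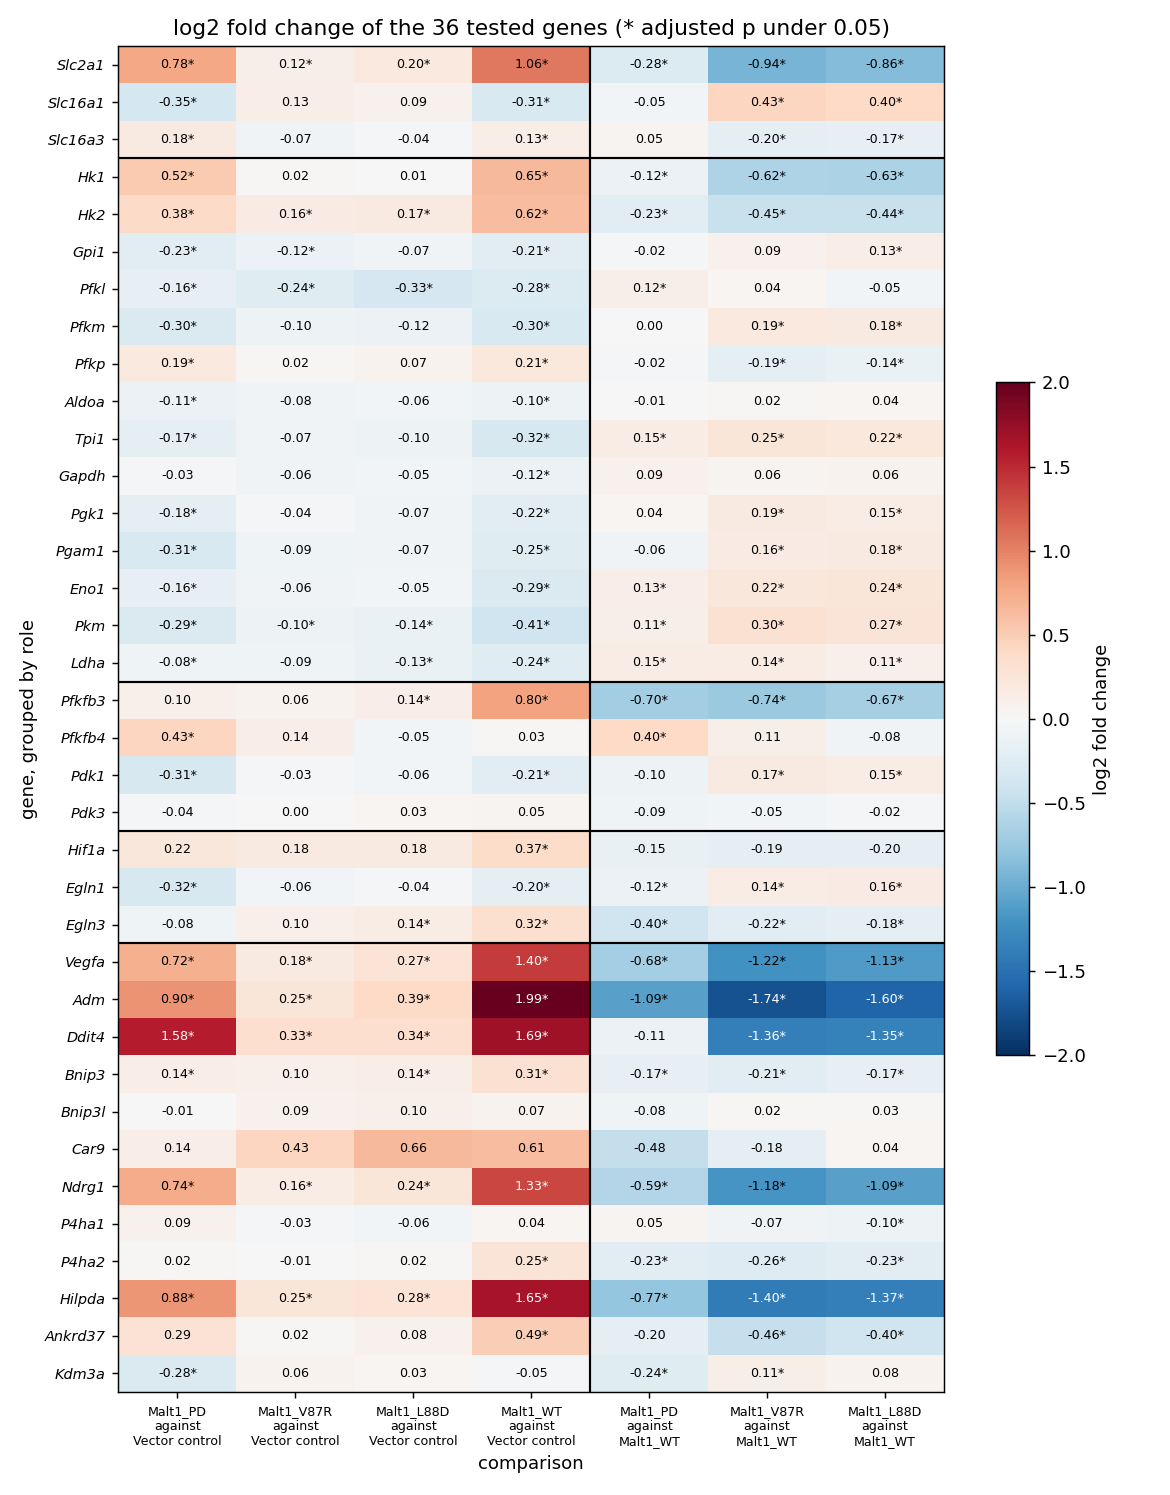
log2 fold change of each tested gene (rows, grouped by role) in 7 comparisons (columns), with the first group named over the second. Red is higher and blue is lower in the first group, and an asterisk marks an adjusted p under 0.05. Adm in Malt1_WT against Vector control (1.99) is the largest rise.

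Per kilobase of exon, a scale that allows levels of different genes to be compared, the most abundant members were Gapdh, Ldha and Pgk1. Gapdh, the dehydrogenase that yields the first NADH, had 1505 CPM per kilobase in Malt1_PD, 1472 in Malt1_V87R, 1482 in Malt1_L88D and 1417 in Malt1_WT, against 1538 in Vector control. The hypoxia effectors were lower: Ddit4 had 270.6 CPM per kilobase in Malt1_PD, 114 in Malt1_V87R, 114.5 in Malt1_L88D and 292.5 in Malt1_WT, against 90.7 in Vector control. At the bottom were Car9, the carbonic anhydrase of hypoxic tumours, with 0.463 CPM per kilobase in Vector control, and the untested Ldhb and Aldoc. Aldoc, the brain form of aldolase, reached at most 0.378 CPM in any library and Ldhb, the heart form of lactate dehydrogenase, at most 0.430 CPM. Aldoc had 0 to 8 counts and Ldhb 0 to 7 in a library, and neither was tested.

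Malt1_WT was compared with Vector control to see how these genes differed between cells with the wild-type construct and cells with the vector. The largest changes were among the 12 HIF-inducible effectors, of which 8 were higher and 0 lower. Adm, the vessel-dilating peptide adrenomedullin, was 3.97 times as high. Ddit4, an inhibitor of mTORC1, Hilpda, a lipid-droplet protein, and Vegfa, the growth factor for blood vessels, were 2.64 to 3.22 times as high. Glucose uptake (Slc2a1) and its first steps (Hk1, Hk2) rose too, whereas 11 of the 14 tested glycolytic enzymes fell. Of 36 tested genes, 30 passed the test (83.3%), with 16 higher and 14 lower. Over all 14571 genes 54.9% passed, 27.2% higher and 27.7% lower. In the hypoxia group 10 of 15 were higher and 1 lower, with a median log2 fold change of 0.37, and in the glycolysis group 6 of 21 were higher and 13 lower, with a median of -0.21. The median of all genes was -0.01. Libraries of both groups did not overlap for 29 of the 36 genes, against 59.4% of all genes.

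Among the controls of the pathway, Hif1a had 849, 1013 and 924 CPM in Malt1_WT, against 624, 799 and 734 CPM in Vector control. The groups did not overlap, but the gap between them was narrow, and the log2 fold change was 0.37 ± 0.12 (SE; edgeR adjusted p = 0.02). Egln3, a prolyl hydroxylase, had 577, 554 and 594 CPM in Malt1_WT, against 452, 469 and 458 CPM in Vector control. It rose by 0.32 ± 0.03 on the log2 scale (edgeR adjusted p = 5.4e-09). Egln1, the main oxygen sensor of most cells, had 400.2, 411 and 403 CPM in Malt1_WT, against 458, 460.4 and 479 CPM in Vector control. All its Malt1_WT libraries were below all Vector control libraries, and it fell by 0.20 ± 0.04 (edgeR adjusted p = 2.8e-05).

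Adm had 479, 434 and 457 CPM in Malt1_WT, against 114, 115 and 117 CPM in Vector control. The lowest Malt1_WT library was far above the highest Vector control library, and the fold was 3.97 (log2 fold change 1.99 ± 0.04, edgeR adjusted p = 1.9e-24). Ddit4 had 536, 505 and 499 CPM in Malt1_WT, against 164, 154 and 159.8 CPM in Vector control. No libraries overlapped, and the fold was 3.22 (1.69 ± 0.05 on the log2 scale, edgeR adjusted p = 2.4e-22). Hilpda had 172, 158 and 169.6 CPM in Malt1_WT, against 51.0, 50.5 and 58.1 CPM in Vector control. It rose 3.13-fold (edgeR adjusted p = 4.1e-20), again with a wide gap between the groups. Vegfa had 626, 615 and 642 CPM in Malt1_WT, against 220.5, 248 and 245 CPM in Vector control. Its fold was 2.64 (edgeR adjusted p = 6.9e-19), and Ndrg1, a stress-induced gene of cell differentiation, was close behind at 2.52 (edgeR adjusted p = 3.6e-22).

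The other effectors moved less. Ankrd37 (log2 fold change 0.49 ± 0.13), the mitophagy receptor Bnip3 (0.31 ± 0.05) and P4ha2 (0.25 ± 0.04), a hydroxylase that matures collagen, rose in Malt1_WT. Bnip3l, Car9, P4ha1 and the histone demethylase Kdm3a did not pass the test, with log2 fold changes of 0.07, 0.61, 0.04 and -0.05. Car9 had 1.43, 1.67 and 1.67 CPM in Malt1_WT, against 1.07, 1.596 and 0.539 CPM in Vector control, so the groups overlapped. Ankrd37, with a mean of 7.88 CPM, shares 349 exon bases with Lrp2bp (1.68 CPM) and 57 with Ufsp2 (62.9 CPM), both on the opposite strand, so its counts are uncertain if the counting did not use strand. The same holds for Pfkp, which shares 748 exon bases with Pitrm1 on the other strand, and Pkm shares 767 with Gm49759 on its own strand.

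**Figure D2:**
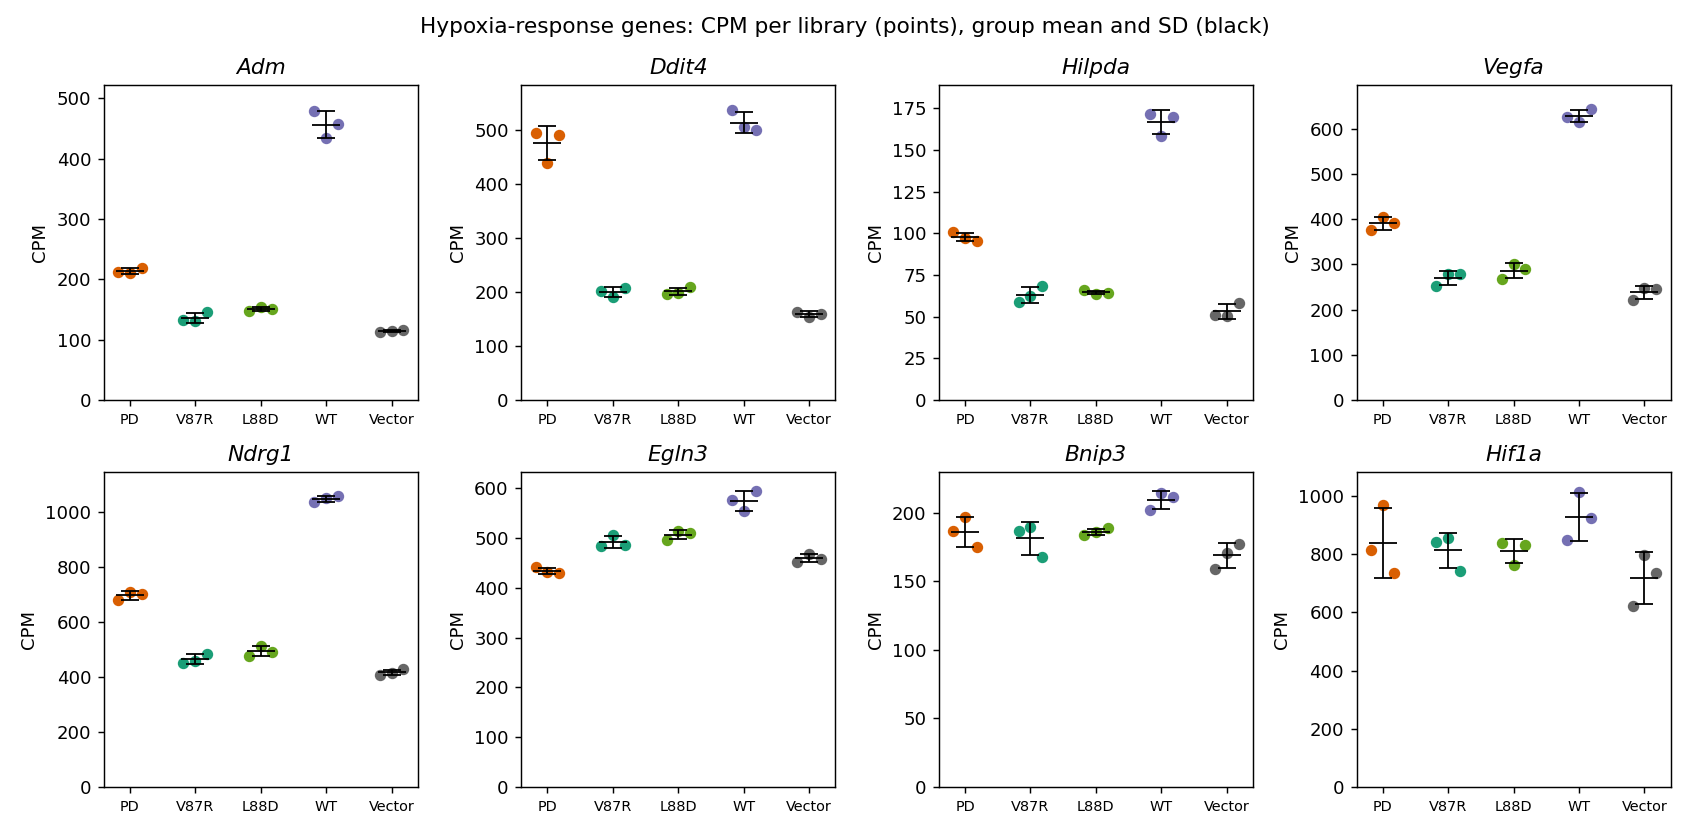
CPM (vertical axis, linear from 0) of 8 hypoxia-response genes in the 5 groups. Points are libraries, and black bars are the group mean and SD (n = 3). Adm reached 434 to 479 CPM in Malt1_WT, while Malt1_PD was near Malt1_WT for Ddit4 and between Malt1_WT and Vector control for Adm, Hilpda, Vegfa and Ndrg1.

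In the glycolysis group the 4 largest rises were those of a glucose transporter, the hexokinases and a regulator of phosphofructokinase. Slc2a1 had 807, 755 and 778 CPM in Malt1_WT, against 374, 373 and 379 CPM in Vector control, a 2.08-fold rise (log2 1.06 ± 0.04, edgeR adjusted p = 1.4e-19). Hk1, the general hexokinase, had 600.2, 563 and 589.5 CPM in Malt1_WT, against 378, 362 and 380.4 CPM in Vector control (1.56-fold, edgeR adjusted p = 9.1e-15). Hk2, the inducible hexokinase of tumours and muscle, had 329.5, 350.4 and 342 CPM in Malt1_WT, against 216, 228 and 222 CPM in Vector control (1.53-fold, edgeR adjusted p = 3.2e-14). None of these 3 genes overlapped between the groups. Pfkfb3, whose product makes fructose 2,6-bisphosphate and so activates phosphofructokinase, had 97.8, 95.3 and 98.5 CPM in Malt1_WT, against 53.9, 58.0 and 55.4 CPM in Vector control, a clear separation (1.74-fold, edgeR adjusted p = 9.3e-15). Smaller rises were those of Pfkp (0.21 ± 0.03), the platelet form of phosphofructokinase, and of the lactate exporter Slc16a3 (0.13 ± 0.04).

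The falls covered the lower pathway, also took in Gpi1, Pfkl and Pfkm, which act earlier, and were small. Pkm, pyruvate kinase, had 2732, 2694 and 2666 CPM in Malt1_WT, against 3667, 3444 and 3606 CPM in Vector control. Every Malt1_WT library was below every Vector control library, and it fell by 0.41 ± 0.03 on the log2 scale (edgeR adjusted p = 2.7e-11). Tpi1, triose phosphate isomerase, had 1813, 1751 and 1750 CPM in Malt1_WT, against 2268, 2110 and 2255 CPM in Vector control, a fall of -0.32 ± 0.04 without overlap (edgeR adjusted p = 1.7e-08). Slc16a1, the lactate transporter MCT1, had 314, 331 and 318 CPM in Malt1_WT, against 376, 417 and 398 CPM in Vector control (-0.31 ± 0.05, edgeR adjusted p = 4.5e-06). Pfkm, the muscle form of phosphofructokinase, had 56.7, 47.3 and 53.4 CPM in Malt1_WT, against 68.4, 61.9 and 62.8 CPM in Vector control (-0.30 ± 0.06, edgeR adjusted p = 2e-04). Both separated without overlap, Pfkm by a narrow margin.

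Ldha, the form of lactate dehydrogenase that favours lactate, had 3369, 3329 and 3280.0 CPM in Malt1_WT, against 4059, 3753 and 3947 CPM in Vector control (-0.24 ± 0.03, edgeR adjusted p = 5.5e-07). Pgk1, phosphoglycerate kinase, had 1840.0, 1841 and 1813 CPM in Malt1_WT, against 2168, 2076 and 2171 CPM in Vector control (-0.22 ± 0.03, edgeR adjusted p = 4.1e-07). For both, all Malt1_WT libraries were the lower ones. Eno1, Pfkl, Pgam1, Gpi1 and the pyruvate dehydrogenase kinase Pdk1 fell by 0.21 to 0.29, and Pfkfb4 and Pdk3 did not pass the test. The fall of Aldoa (-0.10 ± 0.04) was within overlapping libraries and missed the threshold in 8 of 13 alternatives, among them DESeq2 (adjusted p = 0.1). Gapdh had 6023, 5781 and 5759 CPM in Malt1_WT, against 6458, 6025 and 6586 CPM in Vector control. It passed as lower, and its groups were apart by a narrow margin. Leaving out Malt1_WT replicate 2 or Vector control replicate 1 ended the call of Hif1a (edgeR adjusted p = 0.062 and 0.061) and of Gapdh (0.071 and 0.066). Gapdh also lost it without Malt1_WT replicate 3 (0.079) or Vector control replicate 3 (0.14). Without Vector control replicate 2, Car9 (0.016) and Bnip3l (0.047) passed, and Bnip3l also passed without Malt1_WT replicate 1 (0.016).

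**Figure D3:**
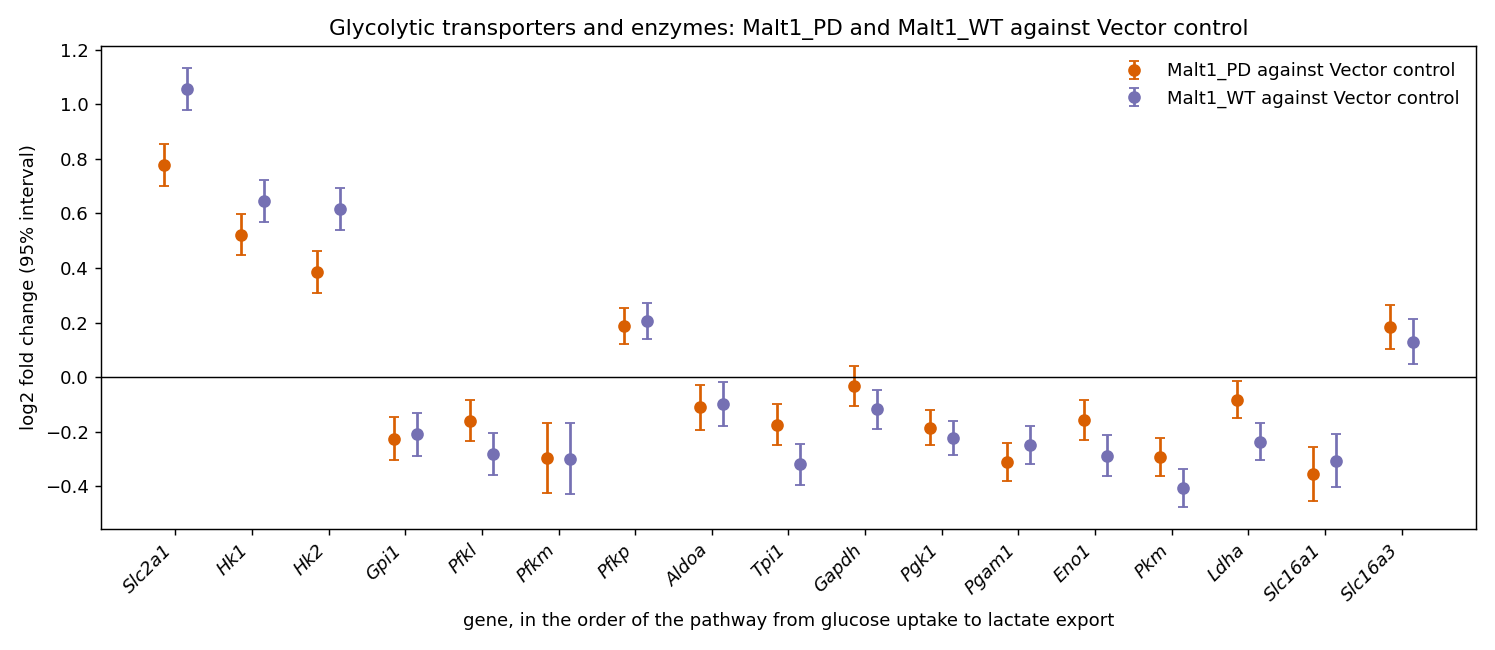
log2 fold change against Vector control (vertical axis) with 95% intervals for Malt1_PD (orange) and Malt1_WT (purple), for glucose and lactate transporters and enzymes in pathway order (horizontal axis). The points of Slc2a1, Hk1, Hk2, Pfkp and Slc16a3 lie above 0 in both, and those of the other enzymes and Slc16a1 lie below it. The interval of Gapdh in Malt1_PD crosses 0.

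Malt1_PD, set against Vector control, differed in many of these genes too. Ddit4 was nearly 3 times as high, and Adm, Hilpda, Ndrg1, Vegfa and Slc2a1 rose by 1.64 to 1.86-fold, while Egln1, Kdm3a, Pdk1 and most of the lower glycolytic enzymes fell. Of the 36 genes 26 passed (72.2%), with 12 higher and 14 lower, beside 44.8% of all genes (22.8% higher and 22% lower). In the hypoxia group 6 were higher and 2 lower (median log2 fold change 0.14), and in the glycolysis group 6 were higher and 12 lower (median -0.11), where the median of all genes was -0.004. Libraries did not overlap for 27 of the 36 genes, against 49% of all genes. This comparison and that of Malt1_WT share the Vector control libraries. Hif1a had 814, 971 and 734 CPM in Malt1_PD, against 624, 799 and 734 CPM in Vector control. The libraries overlapped and Hif1a did not pass (0.22 ± 0.12, edgeR adjusted p = 0.15), except without Malt1_PD replicate 3 (0.049).

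Ddit4 had 494.5, 439 and 491 CPM in Malt1_PD, against 164, 154 and 159.8 CPM in Vector control, a 2.98-fold rise (edgeR adjusted p = 2.3e-21). Adm had 212, 211 and 219 CPM in Malt1_PD, against 114, 115 and 117 CPM in Vector control (1.86-fold, edgeR adjusted p = 3.2e-16). Hilpda had 101, 97.2 and 95.7 CPM in Malt1_PD, against 51.0, 50.5 and 58.1 CPM in Vector control (1.84-fold, edgeR adjusted p = 1.7e-13). In all 3 genes the Malt1_PD libraries were above every Vector control library. Ndrg1 had 679, 711 and 703 CPM in Malt1_PD, against 407, 415 and 427 CPM in Vector control, again without overlap (1.68-fold, edgeR adjusted p = 4e-16). Egln1 had 378, 357 and 379.8 CPM in Malt1_PD, against 458, 460.4 and 479 CPM in Vector control, and fell by 0.32 ± 0.04 on the log2 scale (edgeR adjusted p = 1.7e-08). Kdm3a, which removes methyl groups from histone H3, had 145, 159.8 and 148 CPM in Malt1_PD, against 183, 189 and 179 CPM in Vector control, all lower in Malt1_PD (-0.28 ± 0.04, edgeR adjusted p = 1.2e-06).

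Among the glycolysis genes, Slc2a1 had 646, 634 and 649.7 CPM in Malt1_PD, against 374, 373 and 379 CPM in Vector control (1.71-fold, edgeR adjusted p = 2.8e-16). Hk1 had 551, 514 and 544 CPM in Malt1_PD, against 378, 362 and 380.4 CPM in Vector control (1.44-fold, edgeR adjusted p = 1.5e-12). Hk2 had 280.2, 297 and 292.5 CPM in Malt1_PD, against 216, 228 and 222 CPM in Vector control (log2 fold change 0.38 ± 0.04, edgeR adjusted p = 1.1e-09). The groups were apart in all 3 genes. Pfkfb4, a relative of Pfkfb3, had 10.1, 8.66 and 7.22 CPM in Malt1_PD, against 6.50, 6.20 and 6.56 CPM in Vector control, with unequal Malt1_PD libraries (0.43 ± 0.12, edgeR adjusted p = 0.0048). Its call was lost without Malt1_PD replicate 1 (edgeR adjusted p = 0.06). Pfkfb3 had 58.8, 61.5 and 59.3 CPM in Malt1_PD, against 53.9, 58.0 and 55.4 CPM in Vector control, and did not pass (0.10 ± 0.05, edgeR adjusted p = 0.077), except without Vector control replicate 2 (0.041).

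Slc16a1 had 294, 339 and 299 CPM in Malt1_PD, against 376, 417 and 398 CPM in Vector control (-0.35 ± 0.05, edgeR adjusted p = 6e-07). Pdk1, a kinase that inhibits pyruvate dehydrogenase, had 169, 183 and 176 CPM in Malt1_PD, against 212, 227 and 217 CPM in Vector control (-0.31 ± 0.04, edgeR adjusted p = 1.4e-07). Pgam1, phosphoglycerate mutase, had 367, 354 and 367.5 CPM in Malt1_PD, against 457, 438 and 456 CPM in Vector control (-0.31 ± 0.03, edgeR adjusted p = 1e-08). In these genes every Malt1_PD library was below every Vector control library, and the same held for Pkm (-0.29 ± 0.03). Pfkm had 55.2, 49.7 and 52.5 CPM in Malt1_PD, against 68.4, 61.9 and 62.8 CPM in Vector control (-0.30 ± 0.06, edgeR adjusted p = 0.00028). Pgk1 had 1908, 1857 and 1880.0 CPM in Malt1_PD, against 2168, 2076 and 2171 CPM in Vector control (-0.18 ± 0.03, edgeR adjusted p = 1.2e-05). Neither gene overlapped between the groups. Gapdh had 6501, 5961 and 6199 CPM in Malt1_PD, against 6458, 6025 and 6586 CPM in Vector control, which overlapped (-0.03 ± 0.04, edgeR adjusted p = 0.51). Ldha had 3798, 3582 and 3727 CPM in Malt1_PD, against 4059, 3753 and 3947 CPM in Vector control (-0.08 ± 0.03, edgeR adjusted p = 0.043). Aldoa (-0.11 ± 0.04), Bnip3 (0.14 ± 0.05) and Ldha passed with overlapping libraries, and leaving out Malt1_PD replicate 2 ended their calls (edgeR adjusted p = 0.22, 0.077 and 0.26), as did leaving out Vector control replicate 1 (0.13, 0.11 and 0.34). Aldoa and Ldha also lost theirs without Malt1_PD replicate 3 (0.1 and 0.13) or Vector control replicate 3 (0.2 and 0.21), and Ldha without Malt1_PD replicate 1 (0.051). Fitting only the compared libraries also ended the calls of Aldoa (0.11), Bnip3 (0.062) and Ldha (0.18), and Ldha missed the threshold with RLE scaling (0.056), no filter (0.19) and DESeq2 (0.069).

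Malt1_PD was next set against Malt1_WT directly. Most of the HIF-inducible effectors were lower in Malt1_PD than in Malt1_WT, with Adm at 0.469 times its Malt1_WT level, and so was Pfkfb3. Several lower glycolytic enzymes were slightly higher in Malt1_PD. Of 36 genes 19 passed (52.8%), with 6 higher and 13 lower, beside 23.3% of all genes (12.6% higher and 10.7% lower). With upper-quartile scaling the calls over all genes were 1365 higher and 1766 lower, against 1834 and 1565 here. In the hypoxia group 0 were higher and 9 lower (median log2 fold change -0.23), and in the glycolysis group 6 were higher and 4 lower (median -0.01), beside a median of 0.01 over all genes. Libraries did not overlap for 24 of the 36 genes, against 33.7% of all genes.

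Adm had 212, 211 and 219 CPM in Malt1_PD, against 479, 434 and 457 CPM in Malt1_WT, and fell by 1.09 ± 0.04 on the log2 scale (edgeR adjusted p = 1.4e-17). Hilpda had 101, 97.2 and 95.7 CPM in Malt1_PD, against 172, 158 and 169.6 CPM in Malt1_WT (-0.77 ± 0.05, edgeR adjusted p = 8.1e-12). Pfkfb3 had 58.8, 61.5 and 59.3 CPM in Malt1_PD, against 97.8, 95.3 and 98.5 CPM in Malt1_WT (-0.70 ± 0.05, edgeR adjusted p = 2.4e-12). None of the 3 genes overlapped. Vegfa (-0.68 ± 0.05), Ndrg1 (-0.59 ± 0.04), Egln3 (-0.40 ± 0.03), Slc2a1 (-0.28 ± 0.04) and Hk2 (-0.23 ± 0.04) were also lower in Malt1_PD. Ddit4 had 494.5, 439 and 491 CPM in Malt1_PD, against 536, 505 and 499 CPM in Malt1_WT. All its Malt1_PD libraries were lower, but the difference did not pass the test (-0.11 ± 0.04, 95% interval -0.20 to -0.02, edgeR adjusted p = 0.069). It passed with RLE scaling (0.049), with upper-quartile scaling (0.04) and without Malt1_PD replicate 1 (0.037).

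The 3 largest rises were those of Pfkfb4 (0.40 ± 0.13, edgeR adjusted p = 0.02), Ldha (0.15 ± 0.03, edgeR adjusted p = 0.00091) and Tpi1 (0.15 ± 0.04, edgeR adjusted p = 0.0043). Pfkfb4 had 10.1, 8.66 and 7.22 CPM in Malt1_PD, against 6.19, 6.79 and 6.68 CPM in Malt1_WT. Ldha had 3798, 3582 and 3727 CPM in Malt1_PD, against 3369, 3329 and 3280.0 CPM in Malt1_WT. Tpi1 had 2053, 1855 and 1968 CPM in Malt1_PD, against 1813, 1751 and 1750 CPM in Malt1_WT. In all 3 genes the libraries were apart. The number of glycolysis genes called higher was 6, but it was 1 without Malt1_PD replicate 1, 3 without Malt1_PD replicate 3, 3 without Malt1_WT replicate 2, 2 without Malt1_WT replicate 3, 3 with upper-quartile scaling and 2 when only the compared libraries were fitted. Without Malt1_PD replicate 1 the calls of Pfkfb4 (edgeR adjusted p = 0.2) and Tpi1 (0.064) were lost, and that of Pfkfb4 also without Malt1_WT replicate 1 (0.078) or replicate 3 (0.053).

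Malt1_V87R and Malt1_L88D, each set against Vector control, had the leading effectors higher by small amounts. Adm, Ddit4, Hilpda, Vegfa and Ndrg1 passed in both groups, with folds of 1.11 to 1.26 in Malt1_V87R and 1.18 to 1.31 in Malt1_L88D. Slc2a1 and Hk2 rose as well, and Pfkl and Pkm fell. In Malt1_V87R 10 of 36 genes passed (27.8%), with 7 higher and 3 lower, beside 11.7% of all genes (7.01% higher and 4.69% lower). In Malt1_L88D 13 passed (36.1%), with 10 higher and 3 lower, beside 17.4% of all genes (8.97% higher and 8.43% lower). The hypoxia group gave 5 higher and 0 lower in Malt1_V87R (median log2 fold change 0.10), and 7 higher and 0 lower in Malt1_L88D (median 0.14). Libraries did not overlap with Vector control for 17 genes in Malt1_V87R and 21 in Malt1_L88D, against 27.7% and 34.4% of all genes. The glycolysis group gave 2 higher and 3 lower in Malt1_V87R (median -0.06), and 3 higher and 3 lower in Malt1_L88D (median -0.05). The medians of all genes were -0.002 and -0.006.

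Adm had 133, 131 and 146 CPM in Malt1_V87R and 148, 154 and 151 CPM in Malt1_L88D, against 114, 115 and 117 CPM in Vector control. The log2 fold change was 0.25 ± 0.04 in Malt1_V87R (edgeR adjusted p = 0.00018) and 0.39 ± 0.04 in Malt1_L88D (edgeR adjusted p = 1.4e-07). Ddit4 had 201, 191 and 208 CPM in Malt1_V87R and 197, 197.5 and 209 CPM in Malt1_L88D, against 164, 154 and 159.8 CPM in Vector control. It rose by 0.33 ± 0.05 (edgeR adjusted p = 6.3e-06) and 0.34 ± 0.05 (edgeR adjusted p = 4.1e-06) in these groups. Both genes were apart from Vector control in every library. Hilpda had 58.8, 62.4 and 68.4 CPM in Malt1_V87R and 65.8, 63.8 and 64.2 CPM in Malt1_L88D, against 51.0, 50.5 and 58.1 CPM in Vector control. Vegfa had 252, 278 and 279.6 CPM in Malt1_V87R and 269, 300.2 and 289 CPM in Malt1_L88D, against 220.5, 248 and 245 CPM in Vector control. These 2 genes stood just above Vector control, Hilpda by 0.25 ± 0.06 in Malt1_V87R and 0.28 ± 0.06 in Malt1_L88D, and Vegfa by 0.18 ± 0.05 and 0.27 ± 0.05 (edgeR adjusted p = 0.0038, 0.001, 0.013 and 0.00027 in that order).

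Slc2a1 had 401, 406 and 416 CPM in Malt1_V87R and 419.9, 457 and 412.5 CPM in Malt1_L88D, against 374, 373 and 379 CPM in Vector control. The log2 fold change was 0.12 ± 0.04 in Malt1_V87R (edgeR adjusted p = 0.039) and 0.20 ± 0.04 in Malt1_L88D (edgeR adjusted p = 0.00043). Hk2 had 244, 246.5 and 256 CPM in Malt1_V87R and 248, 252 and 251 CPM in Malt1_L88D, against 216, 228 and 222 CPM in Vector control (0.16 ± 0.04 and 0.17 ± 0.04, edgeR adjusted p = 0.003 and 0.0016). Libraries of these genes were all above those of Vector control. Pfkl, the liver form of phosphofructokinase, had 312, 317 and 320.4 CPM in Malt1_V87R and 298, 295 and 295 CPM in Malt1_L88D, against 378, 366 and 375 CPM in Vector control. It fell by 0.24 ± 0.04 in Malt1_V87R (edgeR adjusted p = 2.9e-05) and 0.33 ± 0.04 in Malt1_L88D (edgeR adjusted p = 1e-07), the largest falls of any of the 36 genes in these comparisons. Pkm had 3316, 3282 and 3385 CPM in Malt1_V87R and 3241, 3259 and 3227 CPM in Malt1_L88D, against 3667, 3444 and 3606 CPM in Vector control. It fell by 0.10 ± 0.03 (edgeR adjusted p = 0.045) and 0.14 ± 0.03 (edgeR adjusted p = 0.0038) in these groups. Both genes were below every Vector control library in both mutants.

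Gpi1, glucose-6-phosphate isomerase, had 690.4, 662.5 and 713 CPM in Malt1_V87R, against 769.8, 717 and 757 CPM in Vector control (-0.12 ± 0.04, edgeR adjusted p = 0.041). Ldha had 3565, 3619 and 3551 CPM in Malt1_L88D, against 4059, 3753 and 3947 CPM in Vector control (-0.13 ± 0.03, edgeR adjusted p = 0.0056). Pfkfb3 had 61.7, 61.4 and 60.5 CPM in Malt1_L88D, against 53.9, 58.0 and 55.4 CPM in Vector control (0.14 ± 0.05, edgeR adjusted p = 0.048). None of these overlapped, and Egln3 and Bnip3 were also higher in Malt1_L88D (0.14 ± 0.03 and 0.14 ± 0.05). Gapdh and Pgk1 did not pass in either mutant, with log2 fold changes of -0.06 and -0.04 in Malt1_V87R and -0.05 and -0.07 in Malt1_L88D.

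Hif1a had 842, 856 and 744 CPM in Malt1_V87R and 838, 763.5 and 833 CPM in Malt1_L88D, against 624, 799 and 734 CPM in Vector control, and its libraries overlapped in both comparisons (edgeR adjusted p = 0.4 and 0.36). The number of genes called in Malt1_V87R was 10, but it was 6 without Malt1_V87R replicate 2, Malt1_V87R replicate 3 or Vector control replicate 1. The call of Slc2a1 in Malt1_V87R was lost on leaving out each of the 6 libraries in turn (edgeR adjusted p = 0.067 to 0.14), that of Pkm for each except Vector control replicate 2 (0.06 to 0.24), that of Gpi1 for each except Malt1_V87R replicate 3 and Vector control replicate 2 (0.12 to 0.29), and that of Vegfa without Malt1_V87R replicate 2 (0.082), Malt1_V87R replicate 3 (0.071) or Vector control replicate 1 (0.12). Hilpda (0.052) and Ndrg1 (0.056) lost it without Malt1_V87R replicate 3, which left 3 hypoxia genes called higher. The glycolysis genes called lower numbered 1 without Malt1_V87R replicate 1 or 2 or Vector control replicate 1 or 3, and 6 without Vector control replicate 2. In Malt1_L88D, Pkm (0.055), Ldha (0.094), Pfkfb3 (0.18) and Bnip3 (0.23) lost theirs without Vector control replicate 1, which left 1 glycolysis gene called lower, against 5 without Vector control replicate 2. Ldha also lost its call without Malt1_L88D replicate 3 (0.052) or Vector control replicate 3 (0.055), Pfkfb3 without any Malt1_L88D library (0.08 to 0.12) or Vector control replicate 3 (0.095), and Bnip3 without any Malt1_L88D library (0.088 to 0.13) or Vector control replicate 2 (0.052). DESeq2 ended the calls of Pfkfb3 (0.059) and Bnip3 (0.061), and Pfkfb3 also missed the threshold with no filter (0.14) and with only the compared libraries (0.062).

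**Figure D4:**
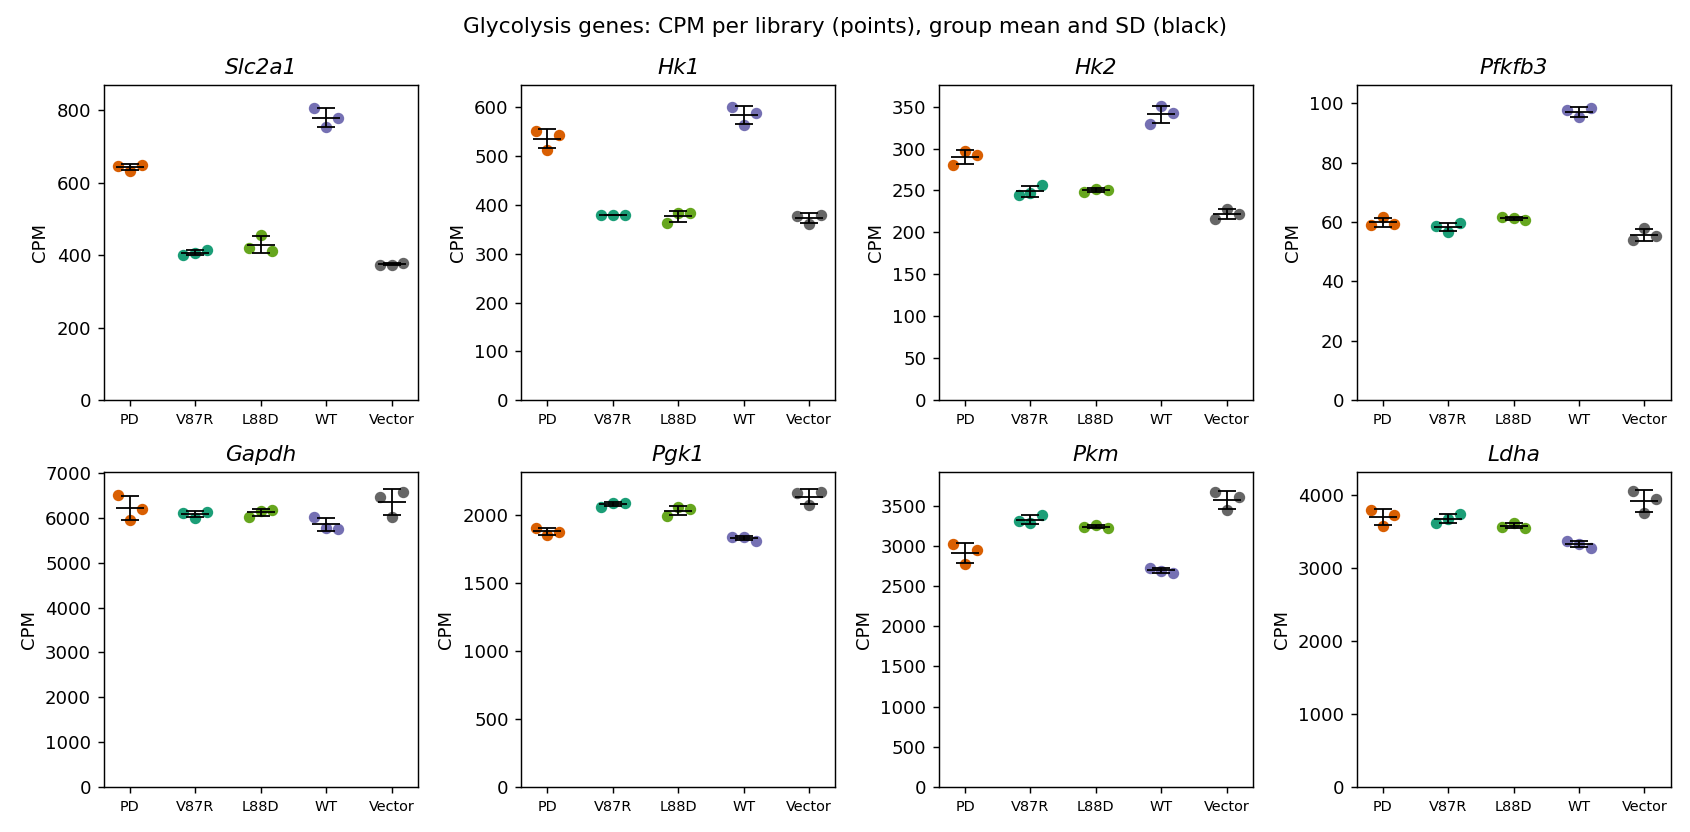
CPM (vertical axis, linear from 0) of 8 glycolysis genes in the 5 groups. Points are libraries, and black bars are the group mean and SD (n = 3). Pfkfb3 stands at 95.3 to 98.5 CPM in Malt1_WT and at 53.9 to 61.7 CPM elsewhere, and Pkm is lowest in Malt1_WT.

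Malt1_V87R and Malt1_L88D differed from Malt1_WT in most of the genes. The leading effectors were lower in both mutants, with Adm at 0.30 and 0.331 times its Malt1_WT level in Malt1_V87R and Malt1_L88D, and Slc16a1, Pkm and most lower enzymes were higher. In Malt1_V87R 26 of 36 genes passed (72.2%), with 11 higher and 15 lower, beside 48.3% of all genes (24.9% higher and 23.4% lower). In Malt1_L88D 27 passed (75%), with 11 higher and 16 lower, beside 45.1% of all genes (22.8% higher and 22.3% lower). The hypoxia group gave 2 higher and 9 lower in Malt1_V87R (median log2 fold change -0.22), and 1 higher and 10 lower in Malt1_L88D (median -0.20). The glycolysis group gave 9 higher and 6 lower in Malt1_V87R (median 0.09), and 10 higher and 6 lower in Malt1_L88D (median 0.065). The medians of all genes were 0.02 in both. Libraries did not overlap for 25 genes in Malt1_V87R and 30 in Malt1_L88D, against 56.6% and 55.2% of all genes.

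Adm was lower by a log2 fold change of -1.74 ± 0.04 in Malt1_V87R (edgeR adjusted p = 7.4e-23) and -1.597 ± 0.04 in Malt1_L88D (edgeR adjusted p = 5.3e-22) than in Malt1_WT. For Hilpda these values were -1.40 ± 0.06 and -1.37 ± 0.06 (edgeR adjusted p = 1.9e-18 and 4.2e-18), and for Ddit4 -1.36 ± 0.05 and -1.35 ± 0.05 (edgeR adjusted p = 5e-20 and 6.8e-20). The libraries of all 3 genes, given above, were apart between each mutant and Malt1_WT. Slc16a1 had 423, 457 and 419 CPM in Malt1_V87R and 428, 419 and 422 CPM in Malt1_L88D, against 314, 331 and 318 CPM in Malt1_WT. It was higher by 0.43 ± 0.05 in Malt1_V87R (edgeR adjusted p = 1.8e-08) and 0.40 ± 0.05 in Malt1_L88D (edgeR adjusted p = 8.9e-08), without overlap. Pkm was higher by 0.30 ± 0.03 in Malt1_V87R and 0.27 ± 0.03 in Malt1_L88D. Tpi1 had 2112, 2066 and 2140.0 CPM in Malt1_V87R, against 1813, 1751 and 1750.0 CPM in Malt1_WT (0.25 ± 0.04, edgeR adjusted p = 1.6e-06). Eno1, enolase, had 3264, 3266 and 3256 CPM in Malt1_L88D, against 2864, 2740.0 and 2704 CPM in Malt1_WT (0.24 ± 0.04, edgeR adjusted p = 3.4e-06). All 3 enzymes were apart from Malt1_WT in every library. Egln1 was higher in both mutants than in Malt1_WT (0.14 ± 0.04 and 0.16 ± 0.04) and Egln3 lower (-0.22 ± 0.03 and -0.18 ± 0.03).

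Pfkfb3 was lower by -0.74 ± 0.05 in Malt1_V87R and -0.67 ± 0.05 in Malt1_L88D, and Slc2a1 by -0.94 ± 0.04 and -0.86 ± 0.04. Hk1 had 380.0, 379.6 and 379.9 CPM in Malt1_V87R and 364, 384 and 383 CPM in Malt1_L88D, against 600.2, 563 and 589.5 CPM in Malt1_WT (-0.62 ± 0.04 and -0.63 ± 0.04). Pfkl, which was lower than in Vector control in all 4 constructs, did not pass between the mutants and Malt1_WT (0.04 ± 0.04 with an interval of -0.03 to 0.12 in Malt1_V87R, and -0.05 ± 0.04 with an interval of -0.13 to 0.02 in Malt1_L88D). Kdm3a passed in Malt1_V87R (0.11 ± 0.04), and its call was lost on leaving out each library in turn except Malt1_WT replicate 2 (edgeR adjusted p = 0.083 to 0.2), which left 1 hypoxia gene called higher there.

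Malt1_V87R and Malt1_L88D were also set against each other. No member passed (0 of 36, beside 0% of all genes by edgeR), and DESeq2 and limma-voom called 0 genes as well. At an unadjusted p under 0.05 there were 3 members and 852 of all genes. The median log2 fold change of the members was -0.01 and that of all genes 0.005, and libraries did not overlap for 8 members, against 15% of all genes. Adm had 133, 131 and 146 CPM in Malt1_V87R, against 148, 154 and 151 CPM in Malt1_L88D, so its libraries were apart, with a log2 fold change of -0.14 ± 0.04 (95% interval -0.23 to -0.05, edgeR adjusted p = 0.66). For Ddit4 the interval was -0.10 to 0.09, for Vegfa -0.19 to 0.01, and for Slc2a1 -0.15 to 0.00. The widest interval was that of Car9, from -0.82 to 0.37, whose level was 1.253 to 1.832 CPM in these libraries.

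Other HIF-inducible genes were listed by 30 symbols, of which 29 had a row in the count table and 21 were tested. They gave 10 higher and 5 lower in Malt1_PD (median log2 fold change 0.14), 5 higher and 3 lower in Malt1_V87R (0.03), 8 higher and 2 lower in Malt1_L88D (0.05) and 14 higher and 3 lower in Malt1_WT (0.40), each against Vector control. The list's called share was 71.4% in Malt1_PD, 38.1% in Malt1_V87R, 47.6% in Malt1_L88D and 81% in Malt1_WT, beside 44.8%, 11.7%, 17.4% and 54.9% of all genes. Hmox1, the heme oxygenase that is also induced by oxidative stress, averaged 457.5 ± 8.64 CPM in Malt1_PD, 229 ± 8.39 in Malt1_V87R, 232 ± 3.82 in Malt1_L88D and 1037 ± 75.3 in Malt1_WT, against 194 ± 4.12 in Vector control. Bhlhe40, a repressor of the circadian clock, averaged 710.3 ± 11 CPM in Malt1_PD and 720.5 ± 32.8 in Malt1_WT, against 263 ± 7.67 in Vector control, and its difference between Malt1_PD and Malt1_WT did not pass (-0.02 ± 0.04, edgeR adjusted p = 0.75). Angptl4, a lipase inhibitor, went the other way and averaged 7.15 ± 0.818 CPM in Malt1_PD and 9.81 ± 0.334 in Malt1_WT, against 23.3 ± 2.41 in Vector control. In Malt1_PD against Malt1_WT 1 of the 21 was higher and 15 were lower, beside 12.6% and 10.7% of all genes, with the smallest adjusted p for Hmox1 (-1.18 ± 0.04), Stc1 (-0.76 ± 0.07) and Ccng2 (-0.52 ± 0.06). The list was drawn up with earlier results of these data known, so its direction is not independent of them. The number called lower was 3 in Malt1_PD without Vector control replicate 3, 1 in Malt1_V87R without Malt1_V87R replicate 1 or Vector control replicate 1 or 3, and 1 in Malt1_L88D without any library of its own or Vector control replicate 1 or 3.

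The partners of HIF-1 alpha and the machinery that destroys it were listed by 13 symbols. Of these, 11 had a row in the count table and 10 were tested. The list had no common direction: 1 was higher and 2 lower in Malt1_PD, 1 higher and 0 lower in Malt1_V87R, 2 higher and 1 lower in Malt1_L88D, and 3 higher and 3 lower in Malt1_WT, against Vector control. Its called share was 30% in Malt1_PD, 10% in Malt1_V87R, 30% in Malt1_L88D and 60% in Malt1_WT, beside 44.8%, 11.7%, 17.4% and 54.9% of all genes. Vhl, the ubiquitin ligase subunit that binds hydroxylated HIF, averaged 63.0 ± 0.478 CPM in Malt1_PD, 70.3 ± 1.08 in Malt1_V87R, 68.7 ± 4.40 in Malt1_L88D and 89.3 ± 4.99 in Malt1_WT, against 58.8 ± 0.368 in Vector control. It rose in Malt1_WT by 0.60 ± 0.05 on the log2 scale (edgeR adjusted p = 4.1e-11). Arnt2, an alternative HIF partner, rose by 1.75 ± 0.22 in Malt1_WT (4.40 ± 0.487 CPM, against 1.296 ± 0.156 in Vector control), and Rbx1, another ligase subunit, fell by 0.36 ± 0.05.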

How the data were processed

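The 15 libraries were total RNA of E0771 cells, made with NEBNext Ultra II Directional kits and read as paired ends, per the labels' protocols. Per the submitters' processing notes, the tools included STAR 2.7.3a, featureCounts 1.6.3 and Trim Galore 0.6.0, with no roles given, and the genome build was GRCm38.p6. Not given in the sources used here: annotation release, strand setting and handling of multi-mapping reads. The authors deposited raw counts per gene symbol, and 0 columns were left without a group. The columns of Malt1_PD were matched by elimination, as the only Malt1 form without columns of its own name.

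From these counts, genes were filtered with filterByExpr, scaled by TMM (factors 0.9733 to 1.0153) and fitted over all 15 libraries with edgeR 4.0.16 (R 4.3.3; robust quasi-likelihood), with Benjamini-Hochberg adjustment over 14571 genes and a threshold of 0.05. CPM used the TMM-scaled totals. The code was tested on simulated data. Alternatives were RLE and upper-quartile scaling, no filter, DESeq2 1.42.0, limma-voom (limma 3.58.1), a fit of the compared libraries alone, the replicate number as a block, and leaving out each library.

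Libraries were named in full for up to 4 genes higher and 4 lower per comparison with Vector control in each of the glycolysis and hypoxia groups, and up to 3 each in the other comparisons, by size of change among genes past the threshold whose libraries did not overlap. Hif1a, Gapdh, Ldha and Pgk1 were always considered. The genes and lists were chosen with earlier results of these data known. The values of 1 gene of the list of other HIF-inducible genes are not reported here.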

Additional observations from a re-analysis of the deposited data

How the results depend on the processing

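Over the 288 pairs of gene and comparison, 151 were called, and 3744 recomputed values gave 3561 with the same direction and side of the threshold, 134 that lost a call, 49 that gained one and 0 that turned direction. Calls were lost under at least 1 alternative for 32 pairs. Leaving out each library in turn gave 27 to 32 genes called for Malt1_WT against Vector control, 23 to 27 for Malt1_PD, 6 to 13 for Malt1_V87R and 9 to 16 for Malt1_L88D against Vector control, 14 to 22 for Malt1_PD against Malt1_WT, 24 to 26 for Malt1_V87R and 22 to 26 for Malt1_L88D against Malt1_WT, and 0 for Malt1_V87R against Malt1_L88D. The fall to 6 came without Malt1_V87R replicate 2, Malt1_V87R replicate 3 or Vector control replicate 1; fewer libraries were then fitted. With the replicate number as a block no call was lost and 11 were added, among them Ddit4 in Malt1_PD against Malt1_WT (edgeR adjusted p = 0.016). Same-numbered libraries correlated in their deviations by -0.051 to 0.150, so the numbers were not taken to pair the libraries. Low counts kept Aldoc and Ldhb, at 0 to 8 per library, out of the tests, and Car9, also with low counts, had wide intervals.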

Other observations

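Neighbouring routes of glucose metabolism differed in how often they were called. The gluconeogenesis shares rest on 1 to 4 called genes per group, too few to be read as a result about the route. The other routes were called at shares above, near or below those of all genes. Of all genes, 44.8% were called in Malt1_PD, 11.7% in Malt1_V87R, 17.4% in Malt1_L88D and 54.9% in Malt1_WT, each against Vector control. Of 4 tested gluconeogenesis genes, 3 were higher and 1 lower in Malt1_PD, 1 higher and 1 lower in Malt1_V87R, 0 higher and 1 lower in Malt1_L88D, and 2 higher and 1 lower in Malt1_WT (100%, 50%, 25% and 75% called). Pck2, the mitochondrial form of phosphoenolpyruvate carboxykinase, averaged 116 ± 9.65 CPM in Malt1_PD and 123 ± 6.4 in Malt1_WT, against 68.3 ± 3.84 in Vector control (SD, n = 3 each). Of 7 pentose phosphate genes, 0 were higher and 3 lower in Malt1_PD, and 2 higher and 3 lower in Malt1_WT (42.9% and 71.4% called). Tkt, transketolase, averaged 194 ± 6.80 CPM in Malt1_PD and 179 ± 7.17 in Malt1_WT, against 223 ± 6.60 in Vector control.

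Of 20 tested isozymes and genes of pyruvate handling, 8 were higher and 2 lower in Malt1_PD, and 6 higher and 3 lower in Malt1_WT. The called shares were 50% and 45%, beside 44.8% and 54.9% of all genes. Tigar, which lowers fructose 2,6-bisphosphate, averaged 60.96 ± 4.55 CPM in Malt1_PD and 66.7 ± 1.85 in Malt1_WT, against 40.4 ± 1.58 in Vector control. Eno2, the neuronal form of enolase, averaged 19.9 ± 1.58 CPM in Malt1_PD and 26.2 ± 3.05 in Malt1_WT, against 15.2 ± 0.645 in Vector control.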
